A study of Mus musculus with 6 samples.

Results

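Toll-like receptors are membrane proteins that recognise molecules of microbes. Those of the cell surface (TLR1, TLR2, TLR4, TLR6) bind lipids and lipoproteins, and those of the endosome (TLR3, TLR7, TLR8, TLR9, TLR13) bind nucleic acids. All of them except TLR3 can signal through the adaptor MYD88 to IRAK kinases, TRAF6, NF-kB and interferon regulatory factors. In mature B cells TLR7 and TLR9 are known to act beside the B cell receptor, and a recurrent MYD88 mutation is well known in human B cell lymphoma. The 10 genes described here are Tlr1, Tlr2, Tlr3, Tlr4, Tlr6, Tlr7, Tlr8, Tlr9, Tlr13 and Myd88, chosen by name, and each was matched by its NCBI gene number to 1 of the 24885 rows of the count table.

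The counts come from 3' RNA-seq (sequencing of the polyadenylated ends of transcripts) of mouse lymphoma cells. All cells carried the Eµ-Myc transgene, which drives Myc in B lineage cells, Cre-ERT2, a recombinase that 4-hydroxytamoxifen (4-OHT) activates, and loxP-flanked (floxed) copies of miR-17~92, a cluster of microRNAs. The fl group (3 libraries) had kept the cluster, and the del group (3 libraries) came from such cells after 4 days in 250 nM 4-OHT and subcloning. All were grown for 48 hours on irradiated Ink4a-null fibroblast feeder cells. Neither the number of subclones nor whether the 3 libraries of a group were separate cultures is stated in the labels, so p-values measure the spread between these libraries, which may be technical. Deletion, 4-OHT treatment and subcloning cannot be told apart.

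Totals were 6554423 to 9580630 reads per library in fl and 2121796 to 3738720 in del, so depth went with the group. The transcript that contains the cluster, Mir17hg, averaged 259 CPM (reads per 1000000 of the scaled library total) in fl against 175 CPM in del. It ends 2222 bases past the last microRNA, so its 3' reads do not check the deletion. The groups differed across the expressed genome: of 10260 genes tested, 6676 (65.1%) passed an adjusted p of 0.05 (edgeR's quasi-likelihood test, adjusted by Benjamini-Hochberg) and 7171 (69.9%) had values that did not overlap between the groups. Several B cell markers were nearly absent from fl, with Cd79b at 2.12 ± 0.465 CPM and Ebf1 at 7 reads over the group, and Ms4a1 had 2 reads in fl and 1 in del.

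The microRNAs of the cluster that the labels give as deleted in del are shown first, since each acts through a seed (bases 2 to 8, in capitals) that pairs with sites in transcripts. The 6 mature sequences of the cluster are given 5′ to 3′ from RefSeq on GRCm38, where they lie on the plus strand of chromosome 14 between 115043684 and 115044496. They fall into 4 seed families, since miR-17 shares its seed with miR-20a, and miR-19a with miR-19b.
mmu-miR-17-5p: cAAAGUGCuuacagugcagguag
mmu-miR-20a-5p: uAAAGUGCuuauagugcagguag
mmu-miR-18a-5p: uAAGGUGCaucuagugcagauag
mmu-miR-19a-3p: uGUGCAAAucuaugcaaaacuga
mmu-miR-19b-3p: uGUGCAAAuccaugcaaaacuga
mmu-miR-92a-3p: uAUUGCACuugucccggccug

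None of the 10 genes held a 7-base match to any of these seeds in its longest annotated 3' UTR. The sites searched were GCACTTT for miR-17 and miR-20a, GCACCTT for miR-18a, TTTGCAC for miR-19a and miR-19b, and GTGCAAT for miR-92a. Among all 19440 genes of the table with an annotated 3' UTR (GENCODE M21, at least 50 bases), 29.8% held at least 1 such match. The UTRs of the 10 genes ran from 58 bases (Tlr8) to 1496 bases (Tlr3), and of the 12178 genes whose UTR was no longer than that, 15.5% held a match. A missing match says only that these letters are not in the annotated UTR.

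Of the 5 endosomal receptor genes, Tlr9, Tlr13 and Tlr7 were close to or at 0 in every fl library and well above it in every del library, whereas Tlr4 and Myd88, which fl already expressed, differed by less than 2-fold. Tlr1 and Tlr2 were detected at a few reads per library in del, and Tlr8 gave no read at all. In bulk RNA, fewer cells that carry a transcript and less of it per cell cannot be told apart. CPM levels are not per length. Each gene was tested between the groups on its own, while the sums and shares given below add reads of different genes.

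**Figure D1:**
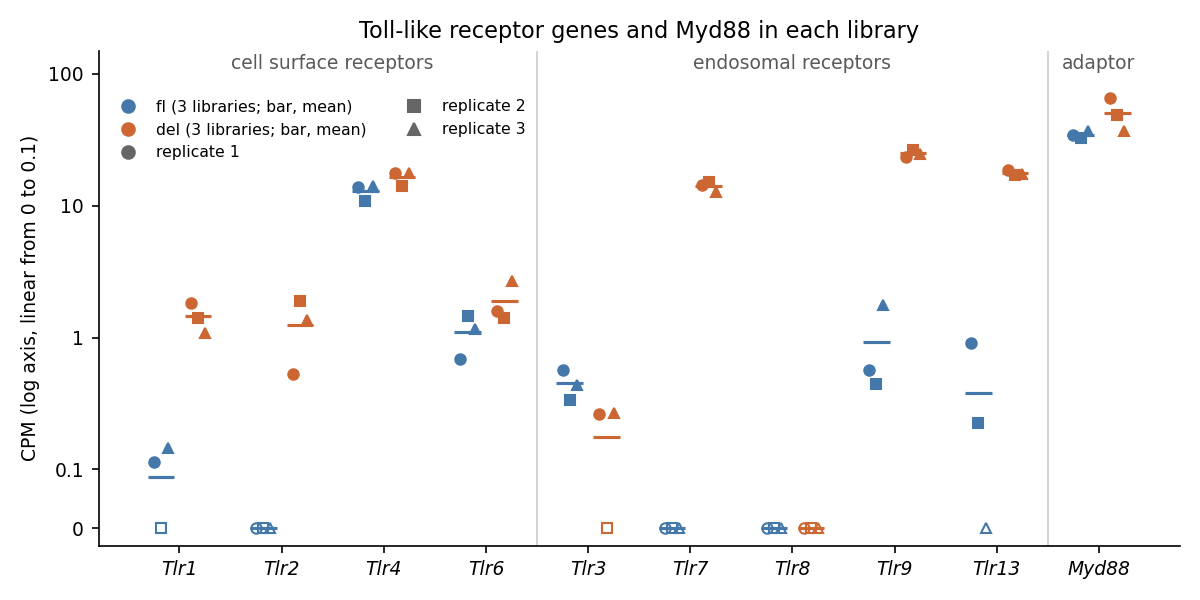
CPM of each of the 10 genes (horizontal axis) in the 3 fl and 3 del libraries, on a log axis that is linear below 0.1; points are libraries, bars are means and open symbols are 0. Tlr7, Tlr9 and Tlr13 are at 12.7 CPM or more in every del library and at 1.76 CPM or less in every fl library.

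Tlr9 encodes the receptor for unmethylated CpG DNA and lies on chromosome 9 (GRCm38, 106222598 to 106226876, plus strand). It was at 0.573, 0.448 and 1.76 CPM in fl replicates 1 to 3 and at 23.4, 26.5 and 24.9 CPM in del replicates 1 to 3. All del values stood more than 10-fold above the highest fl value, and the del libraries lay close together (24.9 ± 1.55 CPM, SD, n = 3). The log2 fold change, del minus fl, was 4.81 ± 0.33 (standard error, adjusted p = 3.57e-06). The fl level rests on 21 reads in all, 12 of them in fl replicate 3, and without that library the log2 fold change was 5.55.

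Tlr13, on the X chromosome (106143275 to 106160493, plus strand), encodes a mouse receptor for bacterial ribosomal RNA. Its fl libraries held 8, 2 and 0 reads (0.917, 0.224 and 0 CPM) and its del libraries 71, 36 and 64 reads (18.7, 17.1 and 17.3 CPM). The groups did not overlap, and Tlr13 rose by 5.37 ± 0.45 on the log2 scale (adjusted p = 1.09e-05). Without fl replicate 1, which held 8 of the 10 fl reads, the value was 6.87.

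Tlr7 encodes a receptor for single-stranded RNA and lies on the minus strand of the X chromosome (167303380 to 167330574). No read was counted in any fl library, against 55, 32 and 47 reads in del (14.5, 15.2 and 12.7 CPM). The pooled del level was 114-fold above the limit that 0 reads allow over the fl group (3 reads, or 0.123 CPM). Counting error in del is not part of that value. Tlr7 was called higher (adjusted p = 4.87e-06), and its fitted fold change depends on the prior count and is not given.

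Tlr7, Tlr9 and Tlr13 passed the count filter only through their del libraries, so a difference was built into their being tested at all. Over all 10260 genes tested, 3333 (32.5%) rose and 322 (3.14%) rose by at least 16-fold.

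The promoters of the rising receptors are shown because 2 of these 3 genes, Tlr9 and Tlr13, have an entry in the RefSeq table (GRCm38.p6), with that of Myd88 beside them. Each runs from 250 bases before to 50 bases after the start, 5′ to 3′ on the gene's strand, with motif matches in capitals. They lie at chr9:106222348-106222647 (plus), chrX:106143025-106143324 (plus) and chr9:119339969-119340268 (minus).
Tlr9: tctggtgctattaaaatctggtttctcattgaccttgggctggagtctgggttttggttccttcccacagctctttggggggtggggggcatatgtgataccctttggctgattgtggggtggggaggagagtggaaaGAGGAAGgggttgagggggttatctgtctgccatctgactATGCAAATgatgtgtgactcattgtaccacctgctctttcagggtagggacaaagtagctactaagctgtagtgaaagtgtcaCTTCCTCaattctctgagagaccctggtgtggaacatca
Tlr13: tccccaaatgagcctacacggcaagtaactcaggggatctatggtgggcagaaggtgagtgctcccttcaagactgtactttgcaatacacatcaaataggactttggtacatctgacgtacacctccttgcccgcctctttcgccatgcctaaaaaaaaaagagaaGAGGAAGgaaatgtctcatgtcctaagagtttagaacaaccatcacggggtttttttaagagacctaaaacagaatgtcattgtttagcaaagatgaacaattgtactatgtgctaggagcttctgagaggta
Myd88: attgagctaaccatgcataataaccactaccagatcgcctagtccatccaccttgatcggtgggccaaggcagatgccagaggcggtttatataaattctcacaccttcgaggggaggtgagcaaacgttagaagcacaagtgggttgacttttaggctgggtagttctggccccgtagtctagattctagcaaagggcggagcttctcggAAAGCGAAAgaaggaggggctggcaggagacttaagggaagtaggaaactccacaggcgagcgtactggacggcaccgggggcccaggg

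The motifs searched, on both strands, were GAGGAAG (a core that PU.1 and other ETS factors bind), ATGCAAAT (the octamer of POU factors), CACGTG (the E-box that MYC binds), CCCNNGGG (EBF1), TGTGGT (RUNX) and AAANNGAAA (interferon regulatory factors). They share no bases in these promoters. GAGGAAG occurred in both receptor promoters, at positions -112 and 12 from the start in Tlr9 and -83 in Tlr13, and in 13.63% of all 32851 promoters of this length. The octamer stood at -72 in Tlr9 and in 1.74% of all promoters. The Myd88 promoter held 1 match to AAANNGAAA, at -39, which 10.55% of promoters held. The Tlr9 promoter held no CG dinucleotide, against a median of 7 over all promoters, 5 in Tlr13 and 13 in Myd88. These are matches of letters and not evidence of binding.

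Tlr4, the receptor for bacterial lipopolysaccharide, was the receptor gene with clear counts in both groups (96 or more in each fl library and 30 or more in each del library). It lies on chromosome 4 (66827551 to 66846581, plus strand) and was at 14.0, 10.9 and 14.1 CPM in fl, against 17.6, 14.2 and 17.8 CPM in del. Every del value lay above every fl value, though by little, and the log2 fold change of 0.38 ± 0.17 did not pass the threshold (adjusted p = 0.085).

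Myd88, the shared adaptor, on chromosome 9 (119335934 to 119340018, minus strand), was at 34.5, 32.9 and 36.8 CPM in fl, against 65.3, 48.8 and 37.0 CPM in del. The lowest del library lay just above the highest fl library, and the del libraries spread widely (50.4 ± 14.2 against 34.7 ± 1.96 CPM, SD, n = 3). Myd88 rose by 0.54 ± 0.20 on the log2 scale (adjusted p = 0.0371). It was 1 of 4 members called higher of 5 tested, beside 32.5% of all genes called higher and 65.1% called in either direction, and the other 3 are those that passed the filter only through del. That call depended on most libraries: it was lost without fl replicate 1 (adjusted p = 0.071), fl replicate 2 (0.0986), fl replicate 3 (0.0569), del replicate 1 (0.177) or del replicate 2 (0.0633). It was also lost with upper-quartile factors (0.093), and without del replicate 1 the log2 fold change was 0.29.

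The other 5 members had too few reads for the main test. Tlr1 and Tlr6, which pair with TLR2 to bind lipoproteins, are neighbours on chromosome 5, 19491 bases apart on the minus strand. Tlr1 (64924680 to 64933600) had 1, 0 and 1 reads in fl and 7, 3 and 4 in del, a ratio of 17.8 in favour of del with an exact 95% counting interval of 4.10 to 162. Tlr2, on chromosome 3 (83836272 to 83841824, minus strand), had no read in fl and 2, 4 and 5 in del, 9.34-fold above the limit for 0 reads. Tlr6 (64953092 to 64970942) had 6, 13 and 8 reads in fl and 6, 3 and 10 in del, and its CPM values overlapped (1.11 ± 0.388 and 1.90 ± 0.699). In RefSeq the Tlr6 locus overlaps Fam114a1 and Mir574, and in GENCODE M21 Myd88 overlaps Slc22a14 on the same strand and Acaa1a on the opposite strand, and Tlr3 overlaps Gm45542. The sources used here do not say how reads in overlapping genes were treated, so the counts of Tlr6, Myd88 and Tlr3 are uncertain to that extent.

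With no count filter Tlr1 and Tlr2 were both called higher in del, at adjusted p = 0.00103 and 0.0012 with edgeR and 0.00325 and 0.000557 with DESeq2, while Tlr6 and Tlr3 were not (0.209 and 0.393 with edgeR). Tlr3, the receptor for double-stranded RNA on chromosome 8 (45395665 to 45411075, minus strand), had 5, 3 and 3 reads in fl and 1, 0 and 1 in del. Its ratio of 0.463 (0.0499 to 2.12) was not distinguishable from no difference at this depth. Tlr8 lies 39050 bases from Tlr7 on the X chromosome (167241123 to 167264329, minus strand) and had no read in any library. That allows up to 0.123 CPM in fl, and 0.312 CPM over the del group, both far below the level of Tlr7 in del. Counting intervals and limits cover counting error only, since PCR copies are not independent molecules. A fold against a limit leaves out the counting error of the group that has reads.

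Reads of the receptor genes were therefore divided differently in the groups. The 5 endosomal genes summed to 2.06, 1.01 and 2.20 CPM in fl, against 56.9, 58.7 and 55.1 CPM in del, and the 4 cell surface genes to 14.8, 12.3 and 15.4 CPM in fl, against 21.6, 18.9 and 23.0 CPM in del. Of all reads of the 9 receptor genes, the endosomal genes held 7.56% to 12.5% in fl and 70.6% to 75.6% in del. Tlr4 alone held 83.0% (exact 95% interval 75.9% to 88.7%) in fl replicate 1, 81.5% (73.4% to 88.0%) in fl replicate 2 and 80.0% (71.7% to 86.7%) in fl replicate 3. In del replicates 1 to 3 it held 22.5%, 18.3% and 22.8%. These shares count reads from 3' ends, which are not per length.

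**Figure D2:**
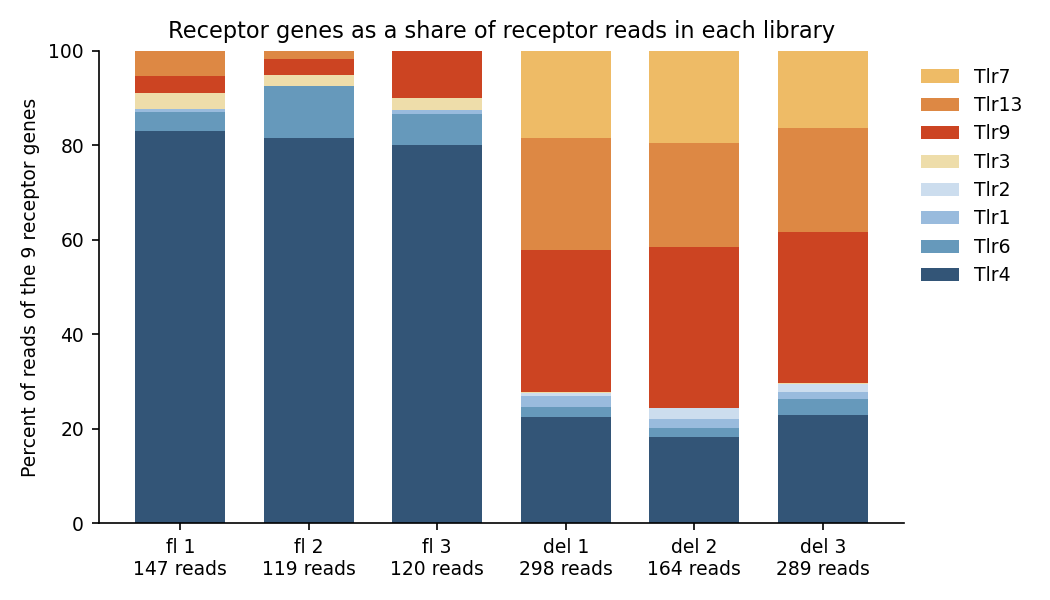
Each bar is 1 library and shows how the reads of the 9 receptor genes (total under the bar) divide among them, in percent; Tlr8 had none. Tlr4 makes up 80.0% to 83.0% in fl, and Tlr9, Tlr13 and Tlr7 make up most of each del bar.

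The remaining mouse family members gave almost no reads. Tlr5, the flagellin receptor, had 9, 5 and 0 reads in fl and 1, 0 and 1 in del, Tlr12 had none in fl and 1, 1 and 2 in del, and Tlr11 had none in any library.

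Beyond the receptors, 63 other genes of the pathway were examined in 9 classes, and 53 had enough reads to be tested. Of these 27 were higher and 9 lower in del, a share of 67.9% called beside 65.1% over all genes tested. The median log2 fold change was 0.66, against -0.003 over all genes. The share called was thus close to the background.

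Of 10 tested genes that fold, carry or assist the receptors, 7 were higher in del and 1 lower, beside 32.5% higher and 65.1% called over all genes. Unc93b1, which carries the endosomal receptors out of the endoplasmic reticulum, was at 48.8, 47.3 and 46.5 CPM in fl, against 228, 220 and 227 CPM in del. The del level was over 4-fold higher in each library (log2 fold change 2.24 ± 0.13, adjusted p = 1.10e-06). Cd36, a scavenger receptor that assists TLR2, went from 1.04 ± 0.399 to 45.1 ± 6.43 CPM. Cd36 is among those counted higher, but it passed the count filter only through its del libraries, so a difference was built into its being tested. Cd180 and Ly86, whose products form a TLR4-like complex on B cells, rose by 2.67 ± 0.23 and 1.66 ± 0.18 on the log2 scale.

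Partners of TLR4 differed in opposite directions, and both are named here after their values were seen. Ly96, which encodes the MD-2 subunit, was at 14.4 ± 2.67 CPM in fl, against 25.5 ± 3.14 CPM in del, and rose by 0.81 ± 0.18 on the log2 scale. Cd14, the lipopolysaccharide co-receptor gene, was at 3.93 ± 1.10 CPM in fl, against 1.95 ± 0.779 CPM in del, and its log2 fold change was -1.05 ± 0.40 (adjusted p = 0.0431). Leaving out del replicate 1 or del replicate 2 ended the Cd14 call (adjusted p = 0.184 and 0.0607), as did DESeq2 (0.0972).

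Endosomal proteases that can cleave the receptors into their active form moved both ways. Ctss rose from 72.4 ± 11.1 to 558 ± 128 CPM, Ctsb from 161 ± 31.1 to 629 ± 21.7 CPM and Lgmn from 74.2 ± 2.82 to 131.5 ± 2.80 CPM. Ctsl fell from 282 ± 4.67 to 74.7 ± 5.50 CPM (log2 fold change -1.92 ± 0.13). Ctsk had 1 read in each group.

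Adaptors other than Myd88 split. Ticam1, which encodes TRIF, the adaptor of TLR3 and of TLR4 in endosomes, was at 22.4, 25.8 and 15.5 CPM in fl, against 4.74, 5.68 and 3.24 CPM in del. It fell by 2.27 (standard error 0.28) on the log2 scale, with no overlap between the groups. Pik3ap1, which encodes the PI3K adaptor BCAP, rose by 1.64 ± 0.19 on the log2 scale. Tirap, the bridge from TLR2 and TLR4 to MYD88, was at 32.8 ± 5.79 and 30.1 ± 1.43 CPM (adjusted p = 0.522).

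Receptor chains of the IL-1 family, which also use MYD88, differed one by one. Il18r1 had 172 reads in fl and none in del, and its pooled fl level was 22.5-fold above the del limit for 0 reads. Il18rap fell by 0.65 (standard error 0.18) on the log2 scale, a call lost when libraries were thinned to the shallowest (adjusted p = 0.0515). Il1rl1, which encodes the IL-33 receptor, rose from 1.47 ± 1.11 to 15.8 ± 0.725 CPM. Its log2 fold change was 3.38 ± 0.37, and 4.22 without fl replicate 1. With 24, 7 and 6 reads in fl, Il1rl1 needed its del libraries to pass the count filter. Il18r1 passed it only through its fl libraries. A difference was thus built into the testing of Il1rl1 and Il18r1. Il1rap was at 4.76 ± 0.65 and 6.85 ± 1.70 CPM (adjusted p = 0.0912).

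Among downstream genes, of 9 tested genes of the IRAK and TRAF class 5 were higher and 2 lower (77.8% called, beside 65.1% over all genes), among them Irak4 (0.96 ± 0.16), Traf3 (1.13 ± 0.19), the ubiquitin ligase gene Peli1 (1.14 ± 0.18) and the B cell kinase gene Btk (1.29 ± 0.28), all log2 fold changes with standard errors. Of 8 genes of the TAK1, IKK and TBK1 class 2 were called, Tab2 at 1.29 ± 0.18 and Ikbkg at 0.51 ± 0.16. The Ikbkg call was lost with upper-quartile factors (adjusted p = 0.0785) and without fl replicate 1 (0.0701), fl replicate 2 (0.0564) or del replicate 3 (0.0774), and with a trend on GC content and transcript length removed the value turned to -0.22. Map3k7 and Tbk1 stood at 0.30 ± 0.13 each and were not called (adjusted p = 0.0572 and 0.0628), although Map3k7 passed with RLE factors (0.0482).

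At the end of the pathway, Irf8 went from 20.9, 20.3 and 20.2 CPM in fl to 214, 293 and 155 CPM in del. All del libraries stood over 7-fold above fl, and the log2 fold change was 3.43 ± 0.23 (adjusted p = 3.40e-06). Rel, which encodes the NF-kB subunit c-Rel, rose by 1.78 ± 0.20 and Irf5 by 0.79 ± 0.12 on the log2 scale, while Nfkb2 fell by 0.83 (standard error 0.19). In all, 4 of 8 tested factors were higher and 1 lower, a share of 62.5% called that is close to the 65.1% over all genes.

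Negative regulators also moved in both directions, 4 of 7 higher and 1 lower (71.4% called, beside 65.1% over all genes). Irak3, which encodes the inhibitory kinase IRAK-M, was at 0.525 ± 0.141 CPM in fl and at 9.48, 13.7 and 26.5 CPM in del. Irak3 is among those counted higher, but it passed the count filter only through its del libraries, so a difference was built into its being tested. Sigirr, an inhibitory receptor of the IL-1 family, went from 35.1 ± 4.07 to 11.5 ± 1.77 CPM. Cyld and Rnf216, both of the ubiquitin system, rose by 0.90 ± 0.20 and 1.02 ± 0.16 on the log2 scale. With a trend on GC content and transcript length removed, Cyld stood at 0.02.

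**Figure D3:**
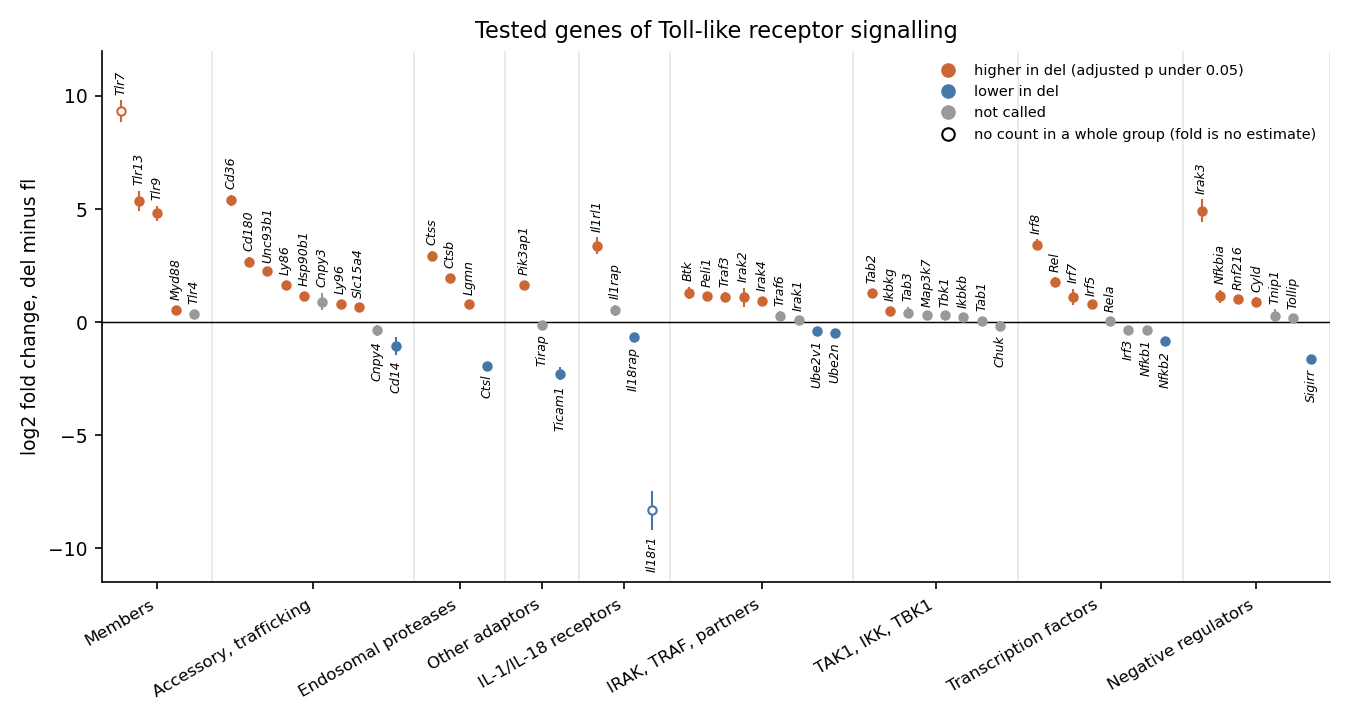
Log2 fold change, del minus fl, with its standard error for the 5 members and the 53 other pathway genes tested, by class; colour gives the call, and open points had no read in a whole group. Tlr13 and Tlr9 lie at 5.37 and 4.81, and the TAK1, IKK and TBK1 genes lie nearer 0, with 2 of 8 called.

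Summed markers of several cell types were higher in del, as the endosomal receptors were, though a few genes made up most of several sums. Summed B cell markers (12 genes) ran from 42.1 to 48.9 CPM in fl and from 901 to 1082 CPM in del. Most reads came from Cd79a, Cd79b and Blnk, and 9 of 9 tested members were higher, beside 32.5% of all genes tested. Cd22, Ebf1 and Cr2 passed the count filter only through their del libraries, so a difference was built into their being tested. Of the untested markers, Fcer2a had 9 reads in fl and 1 in del, and Vpreb1 had 1 and 3. Summed monocyte and macrophage markers (14 genes) ran from 33.4 to 39.5 CPM and from 1177 to 1237 CPM, with most del reads from Lyz2, Itgam and Ms4a6c. All 8 tested members were higher in del, beside 32.5% of all genes tested. They include Csf1r (169 reads in fl over the group, 1246 in del), Cd68 (552 and 901), Fcgr1 (67 and 142) and Mrc1 (7 and 70). Lyz2, Mrc1, Clec4a2 and Ms4a6c passed the count filter only through their del libraries, so a difference was built into their being tested. The 6 markers not tested had too few reads, and of these C1qa, C1qb, C1qc and Mertk had no read in any library.

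Plasmacytoid dendritic cells, known for high TLR7 and TLR9, were followed by 8 genes that summed to 278 to 315 CPM in fl and 544 to 703 CPM in del. Of these Tcf4, itself a B cell gene, gave the most reads, Spib went from 0.508 ± 0.202 to 18.7 ± 1.89 CPM, and Bst2 fell from 60.6 ± 5.05 to 31.5 ± 2.73 CPM. Siglech rose from 1 to 43 reads over the group (adjusted p = 2.57e-05) and Cox6a2 from 16 to 28 reads in the shallower del libraries (adjusted p = 0.000543). Siglech, Spib and Cox6a2 passed the count filter only through their del libraries, so a difference was built into their being tested. In all, 4 of 5 tested members were higher and 1 lower, beside 32.5% higher and 65.1% called over all genes tested. Pacsin1, not tested, had 31 reads in fl over the group and 1 in del, and Ccr9 and Klk1 had no read in any library. Conventional dendritic cell markers (8 genes) ran from 19.5 to 21.8 CPM and from 137 to 148 CPM. Most of that del sum was Cd209a (134 ± 2.95 CPM), while Batf3 fell from 14.3 ± 1.13 CPM to 1 read over the group. Itgax did not differ beyond its spread (4.11 ± 0.386 and 4.20 ± 2.17 CPM), and Clec9a had no read in any library. Of 3 tested members 1 was higher and 1 lower, beside 32.5% higher and 65.1% called over all genes tested. Cd209a passed the count filter only through del and Batf3 only through fl, so a difference was built into their being tested. Of the untested markers, Flt3 had 33 reads in fl and 8 in del (1.37 and 0.712 CPM). Zbtb46 had 27 and 5 (1.11 and 0.514 CPM), Clec10a 1 and 18, and Xcr1 0 and 2.

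Granulocyte markers (10 genes, of which 5 had no read in any library) ran from 62.3 to 96.9 CPM in fl and from 2.37 to 4.26 CPM in del. Most of the fl sum was Cxcr2, at 79.3 ± 18.5 CPM there and 0.426 ± 0.145 CPM in del, where it had 4 reads over the group. Cxcr2 passed the count filter only through its fl libraries, so a difference was built into its being tested. The 2 tested members, Cxcr2 and Elane, were lower in del, beside 65.1% of all genes tested called in either direction. Fibroblast markers (12 genes), which feeder cells would carry, ran from 1.49 to 4.69 CPM in fl and 8.16 to 17.5 CPM in del, with Lum at 0 throughout. Most of that del sum came from Col1a1, Col1a2 and Fn1. Of 2 tested members, Fn1 was higher and Col1a2 was not called, beside 32.5% of all genes tested called higher and 65.1% called. Fn1 passed the count filter only through its del libraries, so a difference was built into its being tested. T and NK cell markers (11 genes) ran from 38.6 to 42.8 CPM and 99.5 to 121 CPM, with Cd2 higher, Cd5 and Lck lower, and Cd3e, Cd8a, Ncr1 and Nkg7 at 0 in all libraries. For none of these 7 sums did the groups overlap, and each gave p = 0.1 (exact permutation test, two-sided), the smallest that 3 against 3 allows. Whether cells of another type take part in the receptor levels was not tested.

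**Figure D4:**
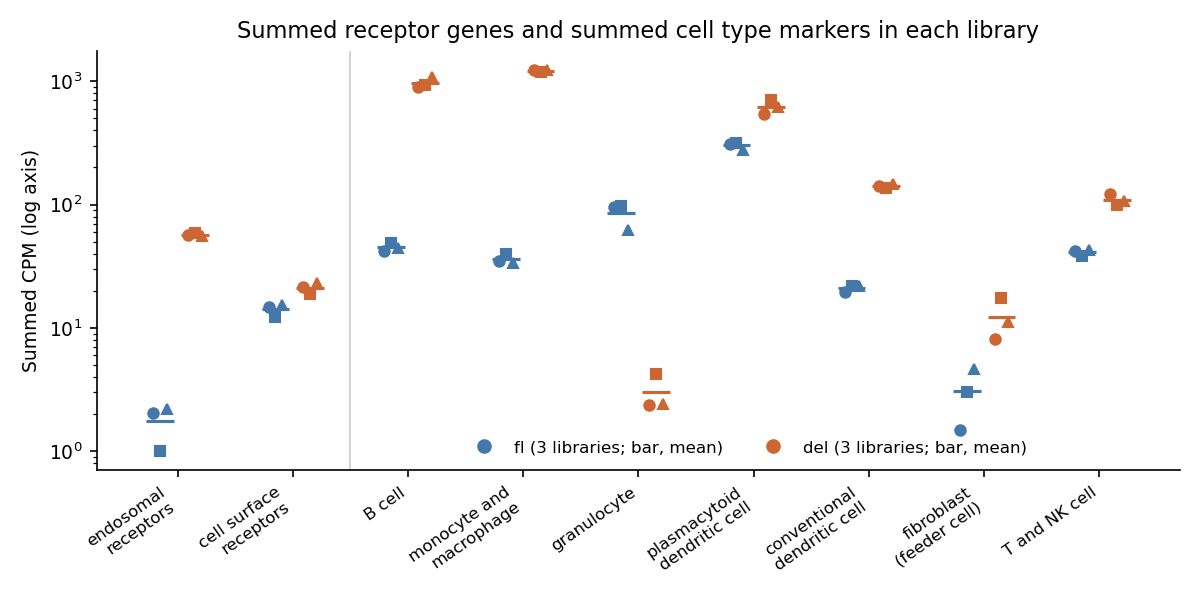
Summed CPM (log axis) of the endosomal and cell surface receptor genes and of 7 lists of cell type markers; points are the 3 fl and 3 del libraries, bars are means. The endosomal sum is at 1.01 to 2.20 CPM in fl and 55.1 to 58.7 CPM in del. The cell surface sum and every marker sum except that of granulocytes are also higher in del.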

How the data were processed

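Poly(A)-primed, strand-specific 3' RNA-seq had been made for 3 fl and 3 del libraries, per the labels' protocols. The authors deposited raw read counts per gene. Per the submitters' processing notes, the tools included STAR and HTSeq and the build was mm10, and the sources used here state no version, annotation or strand setting. Of 24885 rows, 23969 matched a symbol of the RefSeq GRCm38.p6 table by gene number. The 916 unmatched rows held 0.207% to 1.04% of reads and stayed in the fit.

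Totals ranged from 2121796 to 9580630 reads, with a mean fl total 2.65 times the mean del total. Groups were compared with edgeR 4.0.16 (R 4.3.3): filterByExpr with a minimum count of 10, TMM factors, robust glmQLFit and glmQLFTest on group alone, and Benjamini-Hochberg adjustment over all 10260 genes tested with a threshold of 0.05. Standard errors were derived from the F statistic. The script was tested on simulated data. CPM use TMM-scaled totals. Group means are given ± SD and log2 fold changes ± standard error, n = 3 libraries per group. A group with no read was set to a limit of 3 reads over the group. Ratios of counts have exact 95% intervals, and shares have Clopper-Pearson intervals.

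The members, gene lists and rules were chosen with earlier results of these data known. Named by rule were all members, Tlr5, Tlr11 and Tlr12, up to 4 genes of each pathway class by smallest adjusted p, up to 3 markers of each list by highest mean CPM, and the 3 genes nearest in profile to the most abundant called member. Other genes are named because they define a cell type or a class. Alternatives were DESeq2 1.42.0, other factors, other count filters, thinning, leaving out each library, the replicate number as a block, and removal of a trend on transcript length and GC content (GENCODE M21).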

Additional observations from a re-analysis of the deposited data

How the results depend on the processing

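The rises of Tlr7, Tlr9 and Tlr13 kept their direction and passed the threshold under every alternative with a test. Each alternative with a count filter again admitted these genes only through their del libraries, so the built-in difference remains there. Without 1 library at a time, Tlr9 ranged from 4.46 to 5.55 and Tlr13 from 4.92 to 6.87 on the log2 scale. Myd88 lost its call with upper-quartile factors and without any library except del replicate 3. Upper-quartile factors shifted the median of all genes by -0.13, and the Myd88 value there was 0.41. Once a trend on GC content and transcript length was taken out, Myd88 stood at 0.95, Tlr4 at -0.04, Cyld at 0.02, Rel at 0.94, Traf3 at 0.53 and Sigirr at -0.99, while Ikbkg and Ube2v1 changed sign, to -0.22 and 0.18. The cause was not tested. Members called were 4 of 5 tested in the main test (all genes: 6676 of 10260), 6 of 9 with no count filter (7286 of 14759) and 6 of 9 with DESeq2 (6829 of 12759). Without 1 library at a time 3 to 4 members were called. The pathway genes called numbered 31 to 38 over the alternatives (36 in the main test).

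Same-numbered fl and del libraries showed no sign of deviating together (correlations of 0.0825, -0.0386 and -0.02). With 3 libraries per group these values cannot exclude a pairing. With the replicate number as a block 6510 genes, 4 members and 35 pathway genes were called. Depth limits Tlr1, Tlr2, Tlr3 and Tlr6, with 27 reads or fewer in each group, and Tlr8, with none.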

Other observations

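Myd88 was the called member with the highest mean CPM, and the 3 tested genes nearest to it by Euclidean distance of centred log2 CPM over the 6 libraries were Washc1, Coa8 and Arih2. Their distances were 0.158, 0.176 and 0.218. Washc1, which encodes a subunit of the WASH complex of endosomes, went from 25.3 ± 0.445 to 38.5 ± 13.1 CPM, and Arih2, a ubiquitin ligase gene, from 19.5 ± 0.58 to 29.5 ± 9.54 CPM. Their likeness to Myd88 follows from how they were chosen.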
